A study of Canis lupus familiaris with 6 samples.

Results

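Healing of drilled jaw bone filled with beta-TCP was followed from day 4 to day 7 by setting the day 7 array of the implanted site against its day 4 array. Beta-TCP, or beta-tricalcium phosphate, is a calcium phosphate ceramic that is used as a bone filler and is resorbed over time. The comparison uses 2 of the 6 arrays in the series, chosen by their labels alone, and 29254 of the 42860 probe sets, those assigned to 1 gene. All animals were beagle dogs aged 9 years whose premolars had been extracted 3 months before cylindrical holes, 4.5 mm wide and 8 mm long, were drilled in the mandible. The implanted holes were filled with beta-TCP and the control holes were left without it, and tissue cylinders of the size of the hole were taken at 4, 7 and 14 days. No other treatment or genotype is given. RNA of each cylinder, with 100 ng taken for labelling, was read on an Affymetrix canine expression array.

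Each day and site is represented by 1 array, so no difference here has a replicate error, a test or a p-value. The number of dogs, and whether cylinders shared one, is not given in the sources used here. Day, dog and specimen therefore cannot be told apart. A cylinder holds a mixture of cells, and fewer cells of a type and less RNA per cell cannot be told apart in it.

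A drilled hole in bone first fills with a blood clot that neutrophils and monocytes enter. Granulation tissue with new vessels and dividing mesenchymal cells follows, and these cells lay down a collagen matrix. Osteoblasts then deposit and mineralize woven bone, while osteoclasts resorb bone mineral and can also resorb calcium phosphate ceramics. Osteocalcin, bone sialoprotein, dentin matrix protein and MEPE belong to the mineralizing stage, and MEPE and DMP1 mark osteoblasts that are becoming osteocytes.

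Levels are log2(signal / array median + 1), so a gene at the array's median probe set has a level near 1. A difference is the day 7 level minus the day 4 level, and 1 unit is a 2-fold change of the signal plus 1, which understates changes of weakly expressed genes. Levels of different genes come from different probes and cannot be ranked against each other. Of 15112 genes on the array, 10508 passed a filter on low mean signal, and a gene was read on its probe set with the highest mean. The control pair of arrays at the same days is set beside the beta-TCP pair and shares no array with it.

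At the beta-TCP site, 515 genes were at least 2-fold higher on day 7 (4.9% of those kept) and 278 were at least 2-fold lower (2.65%). These shares of all kept genes are the ones to set beside each beta-TCP list count below. The median difference was 0.05 with a standard deviation across genes of 0.57, and the 5th and 95th percentiles were -0.79 and 0.99. At least 4-fold differences were found for 59 genes that were higher and 20 that were lower, and 8-fold ones for 10 and 1. The highest value was 5.28 (NPY) and the lowest -3.48 (CCRL2). At the control site the same days differed for more genes, with 1668 at least 2-fold higher (15.9%) and 506 at least 2-fold lower (4.82%), a median of 0.26 and a standard deviation of 0.82. The split between higher and lower depended on the scaling. It was 515 against 278 as given, 411 against 342 with quantile scaling and 393 against 364 when arrays were set to their 90th percentile. On CfaAffx probe sets alone it was 289 against 279. Probe sets of the array's 2 name types also differed: genes read on Cfa probe sets were at least 2-fold higher in 6.54% and lower in 2.08%, and those read on CfaAffx probe sets in 3.35% and 3.18%. Of 5269 genes with a second probe set above the filter, 417 were at least 2-fold different on the first, and 90.9% of these had the same direction on the second. Only 37.9% of the 417 were also at least 2-fold different the same way on the second.

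**Figure D1:**
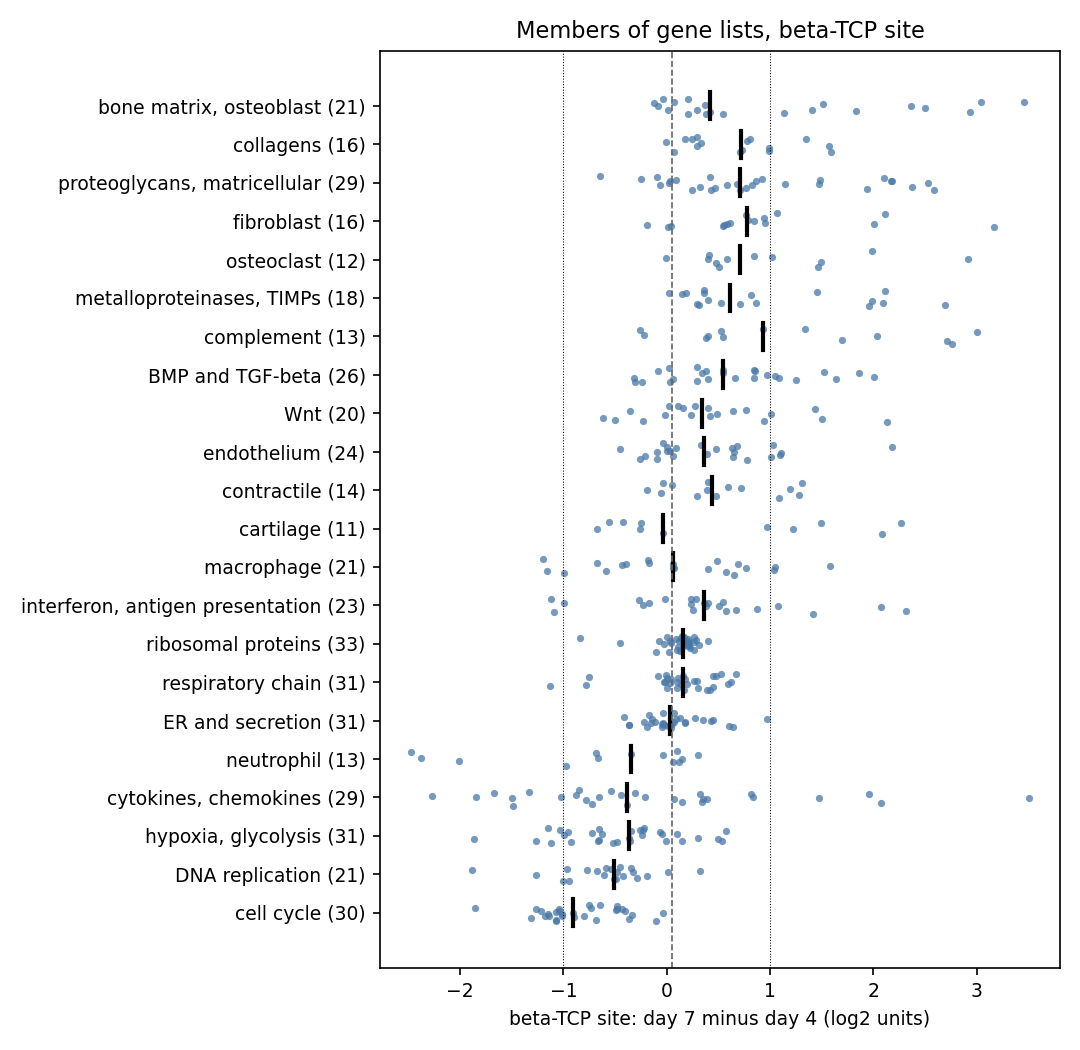
Each point is 1 gene of a list, placed at its day 7 minus day 4 difference at the beta-TCP site in log2 units, with the number of kept members in brackets. The short bar is the list median, the dashed line the median of all kept genes (0.05), and the dotted lines mark 2-fold. Cell cycle genes lie entirely below 0 with a median of -0.90, and the complement list has a median of 0.93.

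Genes of bone matrix and osteoblasts were higher at day 7 in the implanted hole. Of 21 kept members of this list, 9 were at least 2-fold higher and 0 lower, and the list median was 0.42. The control hole gave 8 of 21 at least 2-fold higher, 0 lower and a median of 0.60. Which site had the higher median depended on the scaling: at the 90th percentile it was 0.36 with beta-TCP and 0.16 without it. With beta-TCP the number of members at least 2-fold higher ran from 4 to 9 under the alternative settings. PTH1R, the receptor through which parathyroid hormone acts on osteoblasts, was 1.57 on day 4 and 5.03 on day 7, a difference of 3.46, against 0.80 and 2.47 in the control hole. IBSP, bone sialoprotein, was 5.04 and 7.98 with beta-TCP, a difference of 2.94, and 2.54 and 5.82 without it. ALPL, the alkaline phosphatase that supplies phosphate for mineral, was 2.87 and 5.37 with beta-TCP and 1.48 and 3.49 without it. For these 3 genes both sites were higher at day 7, and the implanted array was above the control array on each day.

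The list also holds 3 genes that were at least 2-fold higher at the beta-TCP site and lower, by any amount, at the control site, MEPE, BGLAP and PHEX, chosen here after their values were seen. MEPE, a secreted phosphoprotein of osteocytes, was 0.07 on day 4 and 3.11 on day 7 at the beta-TCP site, and 0.10 and 0.09 at the control site. BGLAP, osteocalcin, was 0.21 and 2.57 with beta-TCP and 0.81 and 0.73 without it. PHEX, a membrane peptidase of osteoblasts and osteocytes that regulates phosphate, was 0.77 and 2.60 with beta-TCP and 1.10 and 0.56 without it. Only the array of the implanted site at day 7 was clearly above the array median for MEPE, BGLAP and PHEX. MEPE and BGLAP passed the filter on low mean signal only through that array. With no filter 9 of 23 members of the list were at least 2-fold higher with beta-TCP and 0 lower. DMP1, dentin matrix protein of osteocytes, was 0.44 and 1.95 with beta-TCP and 0.74 and 1.48 without it, so both sites were higher at day 7. Second probe sets gave differences of 2.36 for BGLAP, 1.31 for DMP1 and 0.81 for PHEX at the beta-TCP site. MEPE has no second probe set above the filter.

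Other osteoblast genes differed less or lay near the top of the array. CDH11, the osteoblast cadherin, was 6.49 and 7.89 at the beta-TCP site. DLX5, a homeobox factor of osteoblasts, was 2.11 and 3.25. SPP1, osteopontin, was 8.99 and 9.21, and COL1A1, the main chain of bone collagen, was 9.49 and 9.79. Both were already among the brightest probe sets, since the highest level on the 2 arrays was 9.66 and 9.95. The 2 other COL1A1 probe sets gave differences of 0.90 and 1.59 against 0.29 for the brightest one. RUNX2, the transcription factor that commits cells to the osteoblast line, was 1.39 and 1.60. TNFSF11, the osteoclast-inducing ligand RANKL, was 1.84 and 1.76 with beta-TCP and 1.20 and 2.85 without it. SOST, the osteocyte Wnt inhibitor sclerostin, was 0.73 and 0.62.

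**Figure D2:**
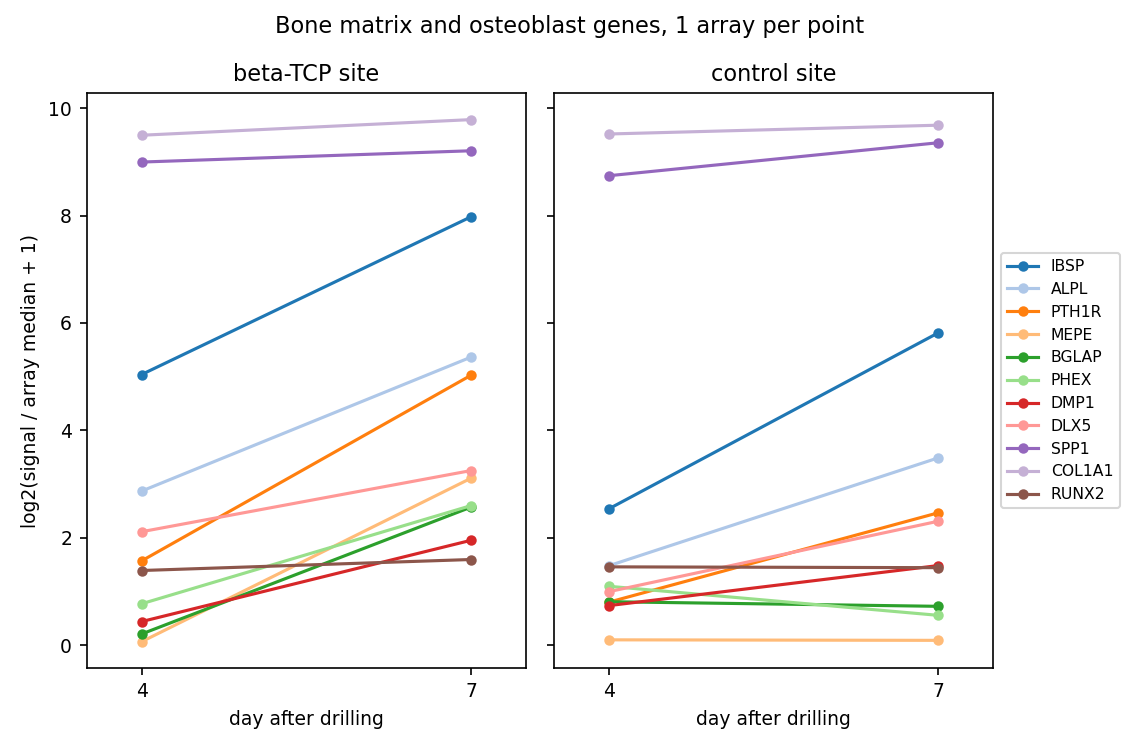
Levels of 11 bone matrix and osteoblast genes, as log2(signal / array median + 1), are plotted on day 4 and day 7 for the beta-TCP site (left) and the control site (right), with 1 array per point and each line joining the same gene. IBSP, ALPL and PTH1R go up in both panels, while MEPE goes from 0.07 to 3.11 on the left and stays at 0.10 and 0.09 on the right.

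Genes of the fibrous matrix and of fibroblasts were also mostly higher at day 7. Of 29 proteoglycans and matricellular proteins, 10 were at least 2-fold higher and 0 lower, with a median of 0.71. The control site gave 15 of 29 higher, 1 lower and a median of 1.09. OMD, osteomodulin, a keratan sulphate proteoglycan of mineralizing tissue, was 5.29 and 7.88 with beta-TCP and 2.84 and 6.34 without it. POSTN, periostin of the periosteum and periodontal ligament, was 4.32 and 6.26 with beta-TCP and 1.90 and 2.82 without it, so the implanted array was the higher on each day. MFAP5, a microfibril protein, was 1.64 and 4.01 with beta-TCP and 0.98 and 0.30 without it. Other members at least 2-fold higher included FBLN1 (2.53), FBLN5 (2.18), SPON1 (2.17), TNC (2.10) and BGN (1.49). VCAN, versican of provisional matrix, was lower by a difference of -0.65.

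Among 16 collagen chains 3 were at least 2-fold higher and 0 lower, with a median of 0.72, and the number higher ran from 1 to 6 under the alternative settings. They were COL16A1 (1.59), COL4A2 of basement membranes (1.57) and COL24A1 (1.34), a fibrillar collagen of developing bone. At the control site 7 of 16 chains were at least 2-fold higher and 0 lower, with a median of 0.96. With 90th percentile scaling the collagen medians were 0.63 with beta-TCP and 0.50 without it. COL24A1 was 0.64 and 1.98 with beta-TCP and 0.65 and 0.73 without it. COL3A1, the collagen of granulation tissue, was 9.66 and 9.95, the brightest value on both implanted arrays. Of 22 enzymes and chaperones that process collagen, 3 were at least 2-fold higher, ADAMTS2 (1.64), PCOLCE (1.61) and P3H1 (1.20), which cleave, enhance cleavage of or hydroxylate procollagen. LOX, which cross-links collagen, and the prolyl hydroxylase P4HA1 were at least 2-fold lower, at -1.08 and -1.03. This list had a median of 0.24, beside 9 of 22 higher, 1 lower and a median of 0.93 at the control site. Fibroblast genes gave 4 of 16 at least 2-fold higher (2 to 5 under the alternatives), with 0 lower and a median of 0.78. These 4 were CDH2 (3.17), MMP2 (2.11), CXCL12 (2.0) and DPT (1.07). More fibroblast genes were higher at the control site, 11 of 16 with 0 lower and a median of 1.55. CDH2, N-cadherin, was 2.42 and 5.59 with beta-TCP and 1.34 and 2.47 without it.

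Signalling genes of the bone-forming pathways were mostly higher. BMP and TGF-beta genes gave 7 of 26 at least 2-fold higher (3 to 8 under the alternatives) and 0 lower, with a median of 0.54. The control site gave 10 of 26 higher, 0 lower and a median of 0.48. Among the ligands, BMP4 was 1.16 and 2.68 with beta-TCP and 1.07 and 0.98 without it, BMP6 differed by 1.64, and BMP2 was 5.17 and 6.42 with beta-TCP and 4.85 and 7.11 without it. The receptor BMPR1A differed by 1.09 and the target gene ID4 by 1.05. The antagonists FST, follistatin, and BAMBI, a decoy receptor, were higher too, by 2.01 and 1.86, so ligands and inhibitors were higher together.

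Wnt pathway genes gave 4 of 20 at least 2-fold higher and 0 lower, with a median of 0.34. All 4 are secreted inhibitors: SFRP4 (2.13), WIF1 (1.5), SFRP2 (1.43) and FRZB (1.01). At the control site 5 of 20 Wnt pathway genes were higher and 0 lower, with a median of 0.36. AXIN2, a target gene of the pathway, differed by 0.64, the receptor LRP5 by 0.94 and the transcription factor LEF1 by -0.23. In the insulin-like growth factor group 2 of 13 were at least 2-fold higher and 1 lower. IGFBP2, a binding protein, was 1.59 and 3.13 with beta-TCP and 0.23 and 0.20 without it, while IGFBP4 was 5.67 and 7.25, and IGF1 itself was 2.23 and 3.12. Among other growth factors and receptors, 3 of 19 were at least 2-fold higher and 2 lower. PTN, pleiotrophin, a heparin-binding factor of developing bone and cartilage, was 5.85 and 8.32 with beta-TCP and 3.55 and 5.15 without it. The epidermal growth factor ligands AREG and HBEGF were lower, AREG at 3.5 and 0.58 and HBEGF at 2.10 and 0.93.

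Osteoclast genes were higher at day 7. Of 12 members 5 were at least 2-fold higher (2 to 6 under the alternatives) and 0 lower, with a median of 0.71, beside 10 of 12 and a median of 1.41 at the control site. ACP5, the tartrate-resistant acid phosphatase of osteoclasts, was 4.73 and 7.64 with beta-TCP and 4.08 and 8.75 without it. MMP9, a gelatinase of osteoclasts and neutrophils, was 5.91 and 7.90 with beta-TCP and 5.74 and 9.57 without it. For both genes the implanted array was the higher on day 4 and the lower on day 7. ATP6V0D2, a proton pump subunit, differed by 1.47, SIGLEC15, a receptor in osteoclast fusion, by 1.49, and CA2, the carbonic anhydrase that supplies protons, by 1.02. CTSK, cathepsin K, which degrades bone collagen, was 8.84 and 9.24 and so already bright on day 4. TNFRSF11A, the receptor for RANKL, and NFATC1, its transcription factor, did not pass the filter on low signal.

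Of 18 matrix metalloproteinases, related proteases and their inhibitors, 6 were at least 2-fold higher and 0 lower, and 18 of 18 had a positive difference, beside 54.6% of all kept genes. With the 90th percentile scaling or relative to the median difference 17 of 18 were positive, and the number at least 2-fold higher ran from 3 to 9 under the alternatives. MMP13, a collagenase of osteoblasts and hypertrophic cartilage, was 4.60 and 7.29 with beta-TCP and 3.93 and 8.59 without it. The others were MMP2 (2.11), the collagenase MMP1 (2.10), MMP9 (1.99), the membrane enzyme MMP16 (1.96) and the aggrecanase ADAMTS5 (1.45). The inhibitors TIMP1 and TIMP2 differed by 0.36 each. At the control site 11 of 18 members of this list were at least 2-fold higher and 0 lower, with a median of 1.38. There 12 of 18 had a positive difference, beside 64.5% of all kept genes at that site.

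Cartilage genes split. Of 11 kept members 4 were at least 2-fold higher and 0 lower, while the median was -0.03. Under the alternative settings 1 to 5 were higher and the median ran from -0.16 to 1.03. CHAD, chondroadherin, was 0.11 and 2.38 with beta-TCP and 0.13 and 0.70 without it. ACAN, aggrecan, was 2.66 and 4.75 with beta-TCP and 1.14 and 2.51 without it. COL11A2 and CNMD, chondromodulin, differed by 1.5 and 1.22. COL10A1 of hypertrophic cartilage was at 0.92 and 0.66, IHH at 1.31 and 0.75, and COL2A1, the defining cartilage collagen, did not pass the filter, with levels of 0.14 and 0.49. SOX9 of the same list did not pass it either, at 0.11 and 1.41 with beta-TCP and 0.06 and 0.68 without it. With no filter 5 of 17 members were at least 2-fold higher and 0 lower. Then 9 differences were positive and 8 negative, with a median of 0.22.

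Inflammatory genes moved in both directions. Of 29 cytokines, chemokines and related genes, 7 were at least 2-fold lower and 4 at least 2-fold higher, with a median of -0.39. Under the alternative settings 4 to 8 were lower and 2 to 4 higher. At the control site 11 of the 29 were at least 2-fold lower and 8 higher, with a median of -0.28. CCL3, a monocyte chemokine, was 5.81 and 3.54 with beta-TCP and 8.05 and 5.30 without it. IL1B was 4.07 and 2.74 with beta-TCP and 6.96 and 3.53 without it, and IL1A was 4.10 and 2.60 with beta-TCP and 6.04 and 3.08 without it. For these 3 genes both sites were lower at day 7, and the implanted array was below the control array on each day. OSM (-1.84), the platelet chemokine PPBP (-1.67), PTGES of prostaglandin E synthesis (-1.49) and IL18 (-1.03) made up the rest of the 7. CXCL8, the main neutrophil chemokine, was 8.40 and 8.01 on its brightest probe set, a difference of -0.39, while its 2 other probe sets gave -2.63 and -2.56.

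The 4 that were higher were 3 chemokines and IL6. CXCL10, a chemokine induced by interferon, was 2.0 and 5.51 with beta-TCP and 1.95 and 5.52 without it. CCL20 was 2.43 and 4.51 with beta-TCP and 2.51 and 4.77 without it. IL6 was 4.20 and 6.16 with beta-TCP and 3.67 and 7.01 without it, and CXCL14 differed by 1.47. The levels of CXCL10 and CCL20 at the implanted and control sites were thus close on both days.

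Leading neutrophil receptors were lower, while the calprotectin genes were not. Of 13 kept members 3 were at least 2-fold lower (2 to 5 under the alternatives) and 0 higher: TREM1 (5.64 and 3.17), IL1R2 (5.91 and 3.53) and CSF3R (4.34 and 2.33). S100A8 was 8.89 and 9.01, S100A9 8.74 and 8.80, and BPI 5.98 and 6.29, and the defining granule genes MPO and ELANE did not pass the filter. The neutrophil median was -0.35 with beta-TCP, beside 0 higher, 4 lower and a median of -0.74 at the control site. Among macrophage markers, 3 of 21 were at least 2-fold higher and 2 lower, with a median of 0.06. The complement subunits C1QA and C1QC were higher, by 1.58 and 1.05, and the signalling adaptors TYROBP and FCER1G were lower, by differences of -1.20 and -1.15. CD68 was 6.51 and 7.27 and CD163, a scavenger receptor, 4.62 and 4.45. The third macrophage gene at 2-fold, CD5L (1.03), had the opposite sign on its other probe set (-0.68). Of 18 lymphoid genes 0 were at least 2-fold higher and 3 were lower, CD4 (-1.36), CD2 (-1.13) and MS4A1 (-1.03). Over all kept genes the shares were 4.9% higher and 2.65% lower. The lymphoid median was -0.22. Under the alternative settings 0 to 3 were lower and the median ran from -0.33 to 0.08. At the control site 4 were higher and 1 lower, with a median of 0.42.

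The interferon-induced genes MX1 and ISG15 were higher at day 7 with beta-TCP and lower without it. Of 23 genes of the interferon and antigen presentation list, 4 were at least 2-fold higher at the beta-TCP site and 2 lower, while 3 were higher and 7 lower at the control site. MX1, an antiviral GTPase, was 3.05 and 5.36 with beta-TCP and 4.33 and 3.32 without it. ISG15, a ubiquitin-like modifier, was 3.77 and 5.84 with beta-TCP and 5.55 and 4.34 without it, and a second probe set gave 2.08 with beta-TCP. For both genes the implanted array was below the control on day 4 and above it on day 7. IFI44L was 4.21 and 5.63 with beta-TCP and 5.14 and 4.24 without it, and MX2 was 2.46 and 3.53 with beta-TCP and 3.33 and 3.01 without it, while OAS1 was 1.41 and 1.14. Of the 2 that were lower, CD74, the invariant chain of class II molecules, gave -1.12, and CIITA, which switches class II genes on, gave -1.09 on one probe set and 0.90 on another.

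**Figure D3:**
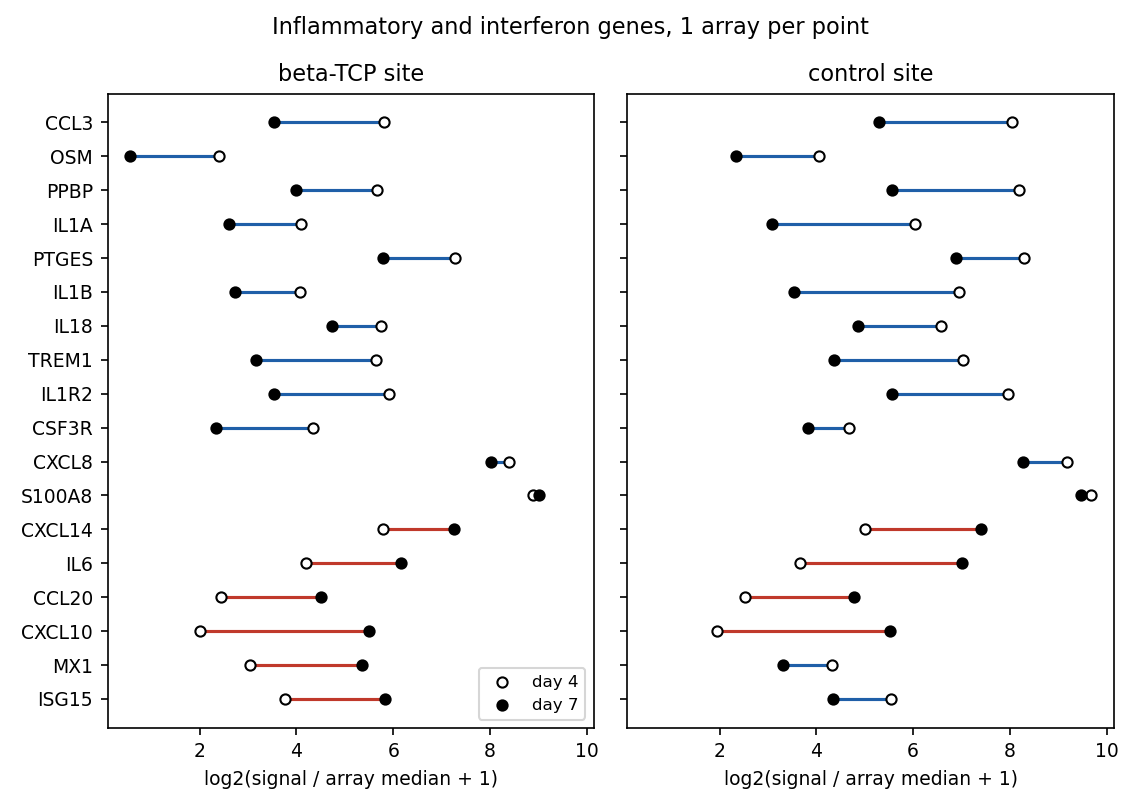
Levels of 18 inflammatory, neutrophil and interferon-induced genes, as log2(signal / array median + 1), are shown at the beta-TCP site (left) and the control site (right), with an open circle for day 4, a filled circle for day 7 and 1 array per point. Lines are blue where day 7 is lower and red where it is higher. CXCL10 goes from 2.0 to 5.51 on the left, and MX1 and ISG15 run in opposite directions in the 2 panels.

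Complement genes were higher at day 7. Of 13 members 6 were at least 2-fold higher and 0 lower, with a median of 0.93 (0.52 to 1.34 under the alternative settings). The control site gave 8 higher and 1 lower and a median of 1.07. With 90th percentile scaling the complement medians were 0.86 with beta-TCP and 0.74 without it. SERPING1, the inhibitor of the C1 proteases, was 2.29 and 5.01 with beta-TCP and 1.85 and 5.25 without it, and its 3 other probe sets gave 1.57 to 3.27. C1R and C1S, the proteases themselves, differed by 3.00 and 2.76, but their other probe sets gave 0.71 for C1R and 0.91 to 1.47 for C1S. CD59, which protects cells from the terminal complex, differed by 2.03, CFI by 1.7 and C2 by 1.34. Proteases and inhibitors of the cascade were therefore higher together.

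Cell division genes were lower at the beta-TCP site. Of 30 kept members of the mitotic and S phase list, 30 had a negative difference, 14 were at least 2-fold lower and 0 higher, and the median was -0.90. Over all kept genes 45.4% had a negative difference. Under the alternative settings the list median ran from -1.01 to -0.59 and the number at least 2-fold lower from 3 to 15. CCNA2, cyclin A of S phase and mitosis, was 4.30 and 2.45 with beta-TCP and 3.53 and 3.05 without it. CCNB2, a mitotic cyclin, was 4.69 and 3.48 with beta-TCP and 3.73 and 4.08 without it. RRM2, the ribonucleotide reductase subunit that supplies nucleotides for replication, was 4.98 and 3.83 with beta-TCP and 4.04 and 4.73 without it. For these 3 genes the implanted array was the higher on day 4 and the lower on day 7. The mitotic kinase AURKA (-1.31), PBK (-1.27), CENPF of the kinetochore (-1.18) and CDC20, which activates the anaphase complex (-1.15), were also at least 2-fold lower. At the control site the list gave 0 at least 2-fold higher, 0 lower and a median of 0.16. That control median ran from -0.27 to 0.36 under the alternatives. It was below 0 with quantile and 90th percentile scaling, relative to the median difference and on CfaAffx probe sets only.

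The order of the 2 sites changed between the days. On day 4 the implanted array was above the control for 28 of 30 cell cycle genes, and on day 7 for 5 of 30. Over all kept genes the shares were 62.8% and 42.0%. The beta-TCP difference was below the control difference for 30 of 30 cell cycle genes and for 64.3% of all kept genes. Replication genes had a smaller shift, with 3 of 21 at least 2-fold lower, 0 higher and a median of -0.51. They were PCNA, the polymerase clamp (7.49 and 5.60), ORC1 of the origin complex (3.72 and 2.45) and the flap nuclease FEN1 (3.36 and 2.35). PCNA was also lower on day 7 at the control site, at 8.37 and 5.61.

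**Figure D4:**
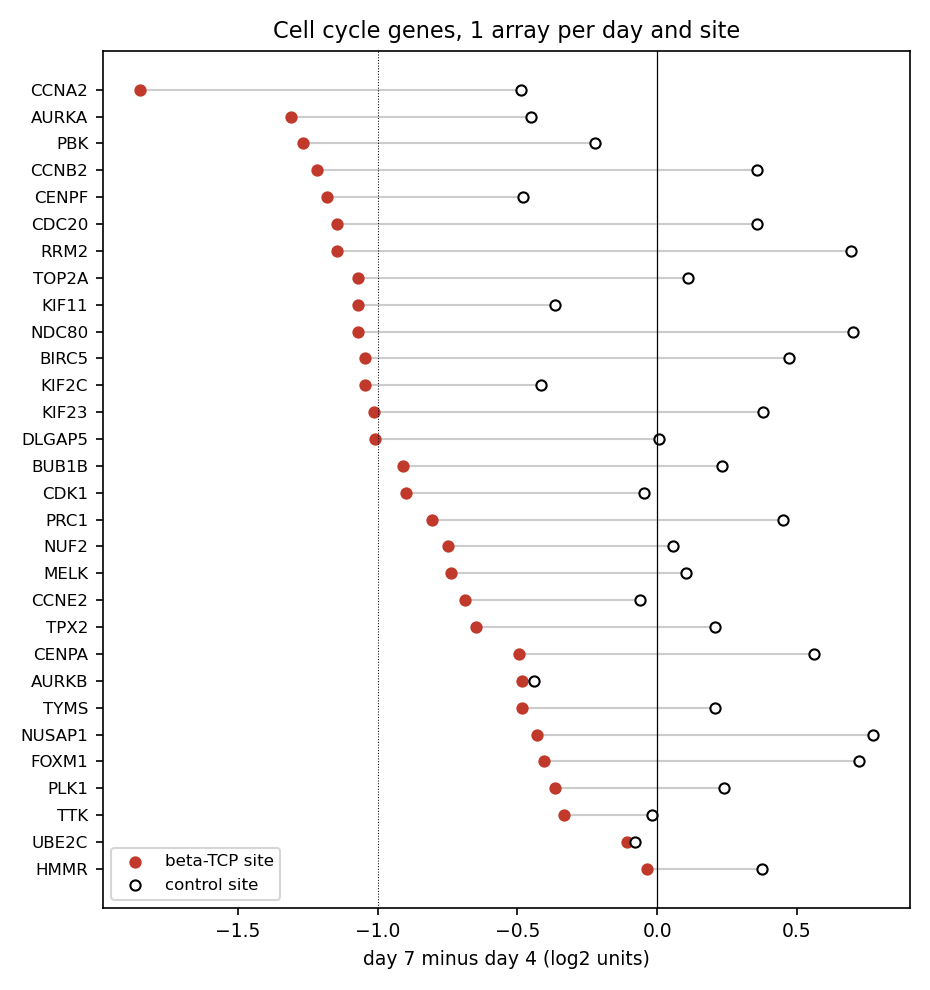
Day 7 minus day 4 differences in log2 units of the 30 cell cycle genes are shown for the beta-TCP site (filled) and the control site (open), 1 array per day and site, and the dotted line marks 2-fold lower. All filled points lie below 0 and to the left of their open point, with CCNA2 lowest at -1.85.

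Vessel genes were moderately higher. Among endothelial markers 5 of 24 were at least 2-fold higher and 0 lower, with a median of 0.36, and the number higher ran from 1 to 6 under the alternative settings. The control site had 13 higher and a median of 1.19. VWF, von Willebrand factor, was 3.59 and 5.78 with beta-TCP and 2.83 and 6.82 without it. The leukocyte adhesion receptors SELE and SELP differed by 1.11 and 1.10, and the angiopoietin receptor TEK and its relative TIE1 by 1.01 and 1.03. PECAM1 was 5.94 and 6.33, and CDH5, the endothelial cadherin, was 0.82 on both days. Of 14 contractile genes of smooth muscle, pericytes and myofibroblasts, 4 were at least 2-fold higher (1 to 4 under the alternatives), ACTG2 (1.31), MYH11 (1.28), TAGLN (1.19) and DES (1.09), while ACTA2 was 7.52 and 8.23. The other 2 probe sets of TAGLN gave -0.03 and 0.33. The control site gave 7 of 14 contractile genes higher, 0 lower and a median of 0.99, beside a median of 0.44 with beta-TCP.

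Genes of hypoxia and glycolysis were lower or close to the median of all genes. Of 31 members 0 were at least 2-fold higher and 5 were lower (2 to 8 under the alternatives), with a median of -0.37. SLC2A3, a glucose transporter, was 7.11 and 5.24, and the oxygen sensor EGLN3 differed by -1.12 and ANKRD37 by -1.26. PKM, pyruvate kinase, gave -1.15 on one probe set and 0.97 on another. VEGFA, the vessel growth factor, was 5.56 and 4.63 with beta-TCP and 6.13 and 6.2 without it. Respiratory chain genes hardly differed at the implanted site, with 0 of 31 at least 2-fold higher, 1 lower and a median of 0.16, beside 19 higher and a median of 1.13 at the control site. Ribosomal protein genes (0 of 33 at least 2-fold different, median 0.15) and genes of the secretory pathway (0 of 31, median 0.04) also lay near the median of all genes. Lysosome genes gave 1 of 29 at least 2-fold higher, 1 lower and a median of 0.18, and reference genes had a median of -0.01 over 16 members.

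Stress, clotting and mast cell genes had no common direction. Immediate early genes gave 3 of 23 at least 2-fold higher, 1 lower and a median of -0.15. The nuclear receptors NR4A1 and NR4A2 were higher, by 1.27 and 1.21, and NR4A1 was 3.51 and 4.78 with beta-TCP and 6.33 and 5.57 without it. KLF4 gave 1.21 on one probe set and -0.13 on another. Heat shock genes gave 1 of 13 at least 2-fold higher, CRYAB, and a median of -0.08. Of 12 genes of clotting and fibrinolysis 1 was at least 2-fold higher, VWF, and 2 were lower, TFPI2 and the plasminogen activator PLAU (4.10 and 3.02), with a median of -0.04. Of 5 mast cell markers 1 was at least 2-fold higher and 1 lower, with a median of 0.53. Under the alternative settings 0 to 1 were higher and 1 to 2 lower. The median ran from -1.02 to 0.53, so its sign depends on the setting.

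Markers of tissues outside the healing bone were checked in the same arrays. Of 37 stratified epithelium genes listed, 17 were kept, and the sum of their levels was 23.6 and 30.1 at the beta-TCP site on days 4 and 7 and 57.2 and 28.5 at the control site. At the implanted site 6 were at least 2-fold higher (2 to 7 under the alternatives) and 1 lower (0 to 3), with a median of 0.41, and at the control site 0 were higher and 13 lower, with a median of -1.77. PERP, a desmosome protein, was 0.88 and 2.70 with beta-TCP and 4.39 and 2.69 without it. LAMA3, a laminin chain of epithelial basement membrane, was 2.27 and 3.27 with beta-TCP and 5.94 and 1.88 without it, and its other probe set gave 0.19 with beta-TCP. KRTDAP of keratinizing epithelium was 0.84 and 0.72 with beta-TCP and 4.66 and 1.03 without it, and the defining factor TP63 did not pass the filter (0.04 and 0.06 with beta-TCP). The control array of day 4 was thus the one high in epithelial genes, and all control differences use that array. The part of epithelium in any result was not tested.

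Skeletal muscle (8 of 25 listed genes kept), erythroid marrow (7 of 19), adipocyte (14 of 19), nerve and Schwann cell (9 of 20) and salivary gland (6 of 15) lists were also summed. The sums on day 4 and day 7 at the implanted site were 8.50 and 10.1 for muscle, 13 and 11.3 for erythroid marrow, 38.2 and 40.2 for fat, 18.4 and 25.6 for nerve, and 12.4 on day 7 against 13.1 on day 4 for salivary gland. NPY, counted in the nerve list, made up most of that list's difference, and the defining Schwann cell factor SOX10 did not pass the filter (0.19 and 0.38). MYH2 of muscle (0.48 and 0.38) and PLIN1 of fat cells (0.08 and 0.06) did not pass it either. FABP4, a fatty acid carrier of fat cells, macrophages and capillary endothelium, was 2.84 and 4.79 with beta-TCP and 3.84 and 1.42 without it. At least 2-fold differences were 0 of 8 in the muscle list, 1 lower of 7 in the erythroid list, 2 higher and 2 lower of 14 in the fat list, 1 higher of 9 in the nerve list and 0 of 6 in the salivary list. Their medians were 0.14, -0.36, 0.09, 0.22 and -0.23. The part of these tissues in the results was not tested.

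The largest differences were led by genes outside the bone matrix list. NPY, neuropeptide Y, a transmitter of sympathetic nerves, was 0.38 on day 4 and 5.66 on day 7 at the beta-TCP site, against 0.05 and 0.74 at the control site. ENPP6, a choline phosphodiesterase, was 1.08 and 5.03 with beta-TCP and 0.87 and 0.95 without it, and its second probe set differed by 1.96. GPRC5C, an orphan receptor, was 1.61 and 5.0 with beta-TCP and 2.16 and 1.77 without it. For these 3 genes only the implanted array of day 7 was high. CDO1, cysteine dioxygenase, was 3.35 and 6.86 with beta-TCP and 5.71 and 5.37 without it, with 2.72 to 2.95 on its 3 other probe sets, so its control level was the higher on day 4. CPE, which trims peptide hormones, was 4.74 and 8.21 with beta-TCP and 3.08 and 5.42 without it.

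Of the other leading genes, NDNF (2.98), RARRES1 (2.93), the small heat shock protein CRYAB (2.69) and IGSF10 (2.68) were higher, and CRYAB was 2.30 and 4.99 with beta-TCP and 2.52 and 7.40 without it. RANBP3L gave 3.01 on one probe set and 0.29 on another. Among the lowest, CCRL2, a receptor that presents chemerin, was 6.04 and 2.56 with beta-TCP and 7.05 and 3.83 without it. TFPI2, a protease inhibitor, was 6.77 and 4.09, with -3.09 on a second probe set. The stress-response genes DDIT3 (5.24 and 2.67) and GADD45B (7.18 and 4.65) were lower, as was SOD2, the mitochondrial superoxide dismutase (7.48 and 5.46). SRGN, the granule proteoglycan of blood cells, was 8.82 and 6.46. FCER1A, the IgE receptor chain of mast cells and basophils, was 5.18 and 3.06, while the mast cell protease CMA1 was 0.40 and 1.98. The other genes among the 20 lowest were LY9 (-2.45), KBTBD7 (-2.43), GPAT3 (-2.38), IL18BP (-2.28), GK (-2.20), FABP7 (-2.10), PLK3 (-2.04) and SLC16A6 (-2.0). Second probe sets gave -0.74 for IL18BP, -0.81 for FABP7 and -0.61 for SLC16A6, and GK ranged from -2.26 to 0.32 over 3 others.

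Across the 10508 genes the beta-TCP and control differences correlated with r = 0.546 and rho = 0.50, as a description, since genes are not independent replicates. The 2 pairs share no array but share days, platform and scaling. At both sites 298 genes were at least 2-fold higher (2.84%), which is 57.9% of those higher with beta-TCP and 17.9% of those higher without it. Likewise 142 were at least 2-fold lower at both (1.35%), which is 51.1% and 28.1% of the respective lists. Opposite calls at 2-fold were found for 17 genes that were higher with beta-TCP and lower without it (0.162%) and for 6 the other way round (0.0571%). Genes whose control difference was much higher included CXCL13, a B cell chemokine (2.42 and 1.69 with beta-TCP, 1.45 and 4.61 without it), FBN2, a fibrillin (4.17 and 3.93 against 2.62 and 5.64), and LPL, lipoprotein lipase (3.96 and 4.39 against 1.57 and 5.26). SERPINB2, an inhibitor of plasminogen activators, was 2.88 and 2.78 with beta-TCP and 7.06 and 3.11 without it. For these 4 genes the implanted levels of the 2 days were within 1 unit of each other.

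**Figure D5:**
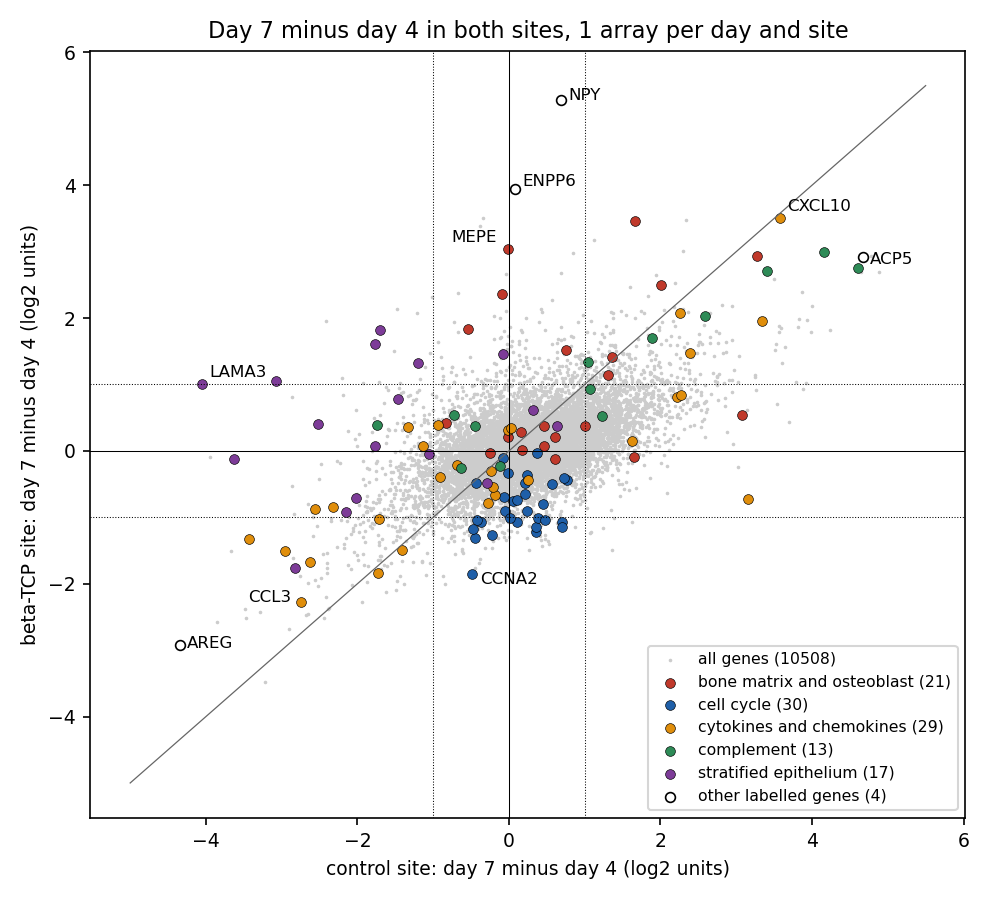
Each point is 1 of 10508 genes, with the day 7 minus day 4 difference of the control site on the horizontal axis and that of the beta-TCP site on the vertical axis, in log2 units from 1 array per day and site. Colours mark 5 gene lists, dotted lines mark 2-fold, and the diagonal marks equal differences. Cell cycle genes lie below the diagonal, and NPY, ENPP6 and MEPE lie high on the vertical axis with control differences of 0.68, 0.08 and -0.01.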

How the data were processed

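For days 4 and 7 the authors deposited a signal per probe set already divided by the array's median, with a floor of 0.01; day 14 was deposited as an undivided intensity and is used here only to check probe pairs. The scale was read from the values; the summary software is not given in the sources used here. Each array was divided by its median over 42860 probe sets, and log2(value + 1) was taken. Names came from a probe table: 29254 probe sets have 1 gene, 439 several and 13167 none, and 27680 matched RefSeq (UU_Cfam_GSD_1.0) by gene ID. The 90 pairs ending in _a_at and _at were left out, since in 19 of them, over 2 log2 units apart, the order is opposite at day 14. Genes at or above the 40th percentile of mean log2 level (0.69) over the 4 arrays of days 4 and 7 were kept. NPY, MEPE, BGLAP and CHAD are among those that passed only through the implanted array of day 7. "At least 2-fold" is a difference of 1 log2 unit or more.

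Named genes are the 20 highest and 20 lowest, the 8 farthest above and 8 farthest below the control difference, up to 5 leading members of each list in each direction, and fixed markers; other list members were named for their role after their values were seen. The members and the 38 lists were chosen with earlier results of these data known. Python 3.11.15, numpy 2.4.6 and pandas 2.3.3 were used. The code was also run on simulated arrays with small noise and known changes larger than the 2-fold threshold. That run checks the code and cannot give the error of these arrays. Array number limits precision.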

Additional observations from a re-analysis of the deposited data

Results flagged for a closer look

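Among the 359 named genes, 9 were at least 2-fold different from day 4 to day 7 at both sites but in opposite directions. Some genes were named for their distance from the control difference, so this count is partly selected for. Over all 10508 kept genes 17 were higher with beta-TCP and lower without it (0.162%), and 6 the other way round (0.0571%). For 2 gene lists the medians had opposite signs and lay at least 1 log2 unit apart. Other genes and lists had opposite signs by smaller amounts. With 1 array per day and site, the difference between the sites was not tested. The epithelial genes LAMA3 (1.01 with beta-TCP and -4.06 without it), DSC2 (1.05 and -3.08), PERP (1.81 and -1.70), S100A14 (1.60 and -1.77) and S100A2 (1.32 and -1.21) were higher with beta-TCP and lower without it, as was the median of the epithelium list (0.41 and -1.77). FABP4 gave 1.96 and -2.42. The interferon-induced genes MX1 (2.31 and -1.01) and ISG15 (2.07 and -1.21) did the same. INHBE, an activin chain, gave -1.49 with beta-TCP and 1.36 without it, and its second probe set gave 0.37 with beta-TCP. The median of the cell cycle list was -0.90 with beta-TCP and 0.16 without it. The control median was -0.08 with quantile scaling, -0.27 at the 90th percentile, -0.10 relative to the median difference and -0.07 on CfaAffx probe sets only. Its sign thus depends on the scaling and on the probe sets read.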

How the results depend on the processing

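No paired analysis was possible because each group holds 1 array, and for the same reason no array could be left out in turn. Of 4231 recomputed differences of named genes under 12 listed alternatives and 1 chosen after seeing the data, 4043 kept their value within the band used, 182 moved and 6 reversed. CIITA (0.90) and PNPLA2 (-0.27) reversed when probe sets were chosen on the implanted arrays, and CD5L (-0.68), PKM (0.97), KLF4 (-0.13) and PNPLA2 (-0.27) with CfaAffx probe sets only; each then rests on another probe set. Of 912 list medians 797 kept their value within the band and 115 moved. By sign alone, some beta-TCP medians did change. Examples are mast cell (0.53, down to -1.02), cartilage (-0.03, up to 1.03), lymphoid (-0.22, up to 0.08) and erythroid (-0.36, up to 0.11). Which site had the higher list median also changed with the setting for some lists. Among them were bone matrix, collagens, proteoglycans, complement, BMP and TGF-beta, and Wnt. At 2-fold, the numbers of higher and lower genes with beta-TCP were 824 and 580 with a pseudocount of 0.25, 209 and 96 with 4, 339 and 129 on Cfa probe sets, 289 and 279 on CfaAffx ones, and, as the alternative chosen after seeing the data, 277 and 141 for genes with a level of at least 2 on both arrays. The control counts were 2209 and 847 with a pseudocount of 0.25, 899 and 240 with 4, 990 and 789 with quantile scaling, 790 and 1050 at the 90th percentile, 1000 and 889 relative to the median, 1072 and 484 with the mean of probe sets, 1246 and 246 on Cfa and 790 and 526 on CfaAffx probe sets. Fewer genes were read in each single name type; the cause of the other shifts was not tested. The correlation between sites ran from 0.484 to 0.617. Levels near the floor and near the array's top limit what a difference can show.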

Other observations

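Among probe sets assigned to no gene or to several, 7180 passed the same filter. Of these, 451 were at least 2-fold higher on day 7 at the beta-TCP site and 170 at least 2-fold lower, 6.28% and 2.37% of them, with differences from -3.07 to 4.12. Of the genes, 416 of the 515 that were higher and 225 of the 278 that were lower belong to none of the gene lists. The lists hold the other 99 and 53, beside 700 of all 10508 kept genes, so most kept genes are in no list.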
